A study of Mus musculus with 2 samples.

Results

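The genes described here are 32 genes of the unfolded protein response and of the amino acid and serine stress program, out of 31054 features counted. Members were taken by gene symbol, and all 32 symbols were found among the features of both libraries. They form 3 groups: 14 chaperones and quality-control genes of the endoplasmic reticulum (ER), 6 stress regulators, and 12 amino acid and serine genes. The last group holds 5 enzymes of serine and one-carbon synthesis (Phgdh, Psat1, Psph, Shmt2, Mthfd2), 3 transporter genes (Slc7a11, Slc7a5, Slc3a2) and Asns, Chac1, Sesn2 and Aars.

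The study profiled cells of pooled mouse tumours, labelled as mCherry+, by droplet single-cell RNA sequencing, with 1 library from young mice (4 weeks old) and 1 from adult mice (24 weeks old). Both libraries carry the stage label d7 and passed the same mCherry sort. The labels give neither the tumour line, the mouse strain, the number of mice pooled nor any treatment. Age cannot be told apart from the tumour pool, the sort and the library, since each age has 1 library. For this reason no test was made, no p-value is given, and intervals cover counting error only.

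The young library held 7558 barcodes and 84862471 unique molecular identifiers (UMIs, each standing for 1 captured transcript), and the adult library 6279 barcodes and 70988070 UMIs. After filtering, 7090 young and 5774 adult cells remained. The libraries shared 111 barcodes. Among them, 37 adult mCherry-rich cells had the same barcode as a shallow young barcode outside every class (median 78833 against 597 UMIs), and the counts of members called in each comparison stayed within 1.5 times of their values without all shared barcodes. Cells with at least 10 mCherry UMIs (423 young, 476 adult) were called mCherry-rich. They were divided by Cyr61, Ankrd1 and Sox9, a set with known targets of the growth coactivator YAP: target-positive cells had at least 3 UMIs of these genes (223 young, 238 adult) and target-negative cells had 0 (155 young, 195 adult). The 45 young and 43 adult cells in between entered the mCherry-rich total only. Of the rest, cells with S100a8 and S100a9 at 1% or more of their UMIs were called neutrophils (122 young, 195 adult), and cells with at least 1 Csf1r UMI were called Csf1r cells (5520 young, 4358 adult). The median Csf1r cell and the median neutrophil held 0 mCherry UMIs in both libraries, against 100 and 99 in mCherry-rich cells.

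The markers of each class were checked against its name. In Csf1r cells C1qa, a complement gene of macrophages, had 1533 (young) and 1437 (adult) CPM, that is UMIs per 1000000 UMIs of the class, against 101 and 73.9 CPM in mCherry-rich cells. Cxcr2, the chemokine receptor of neutrophils, stood at 356 and 288 CPM in the neutrophil class and at most 5.49 CPM in the other 3 classes. All 10 macrophage markers also reached 10 CPM in the neutrophil class, summing to 4004 and 3287 CPM, against 16712 and 14471 CPM in Csf1r cells. A Csf1r UMI was found in 17.2% and 10.3% of the neutrophils, and no macrophage RNA was subtracted from this class. In mCherry-rich cells, none of 5 epithelial, 5 pigment, 5 endothelial, 7 T cell and 6 B and plasma cell markers reached 10 CPM in either library. Dcn, a proteoglycan gene of connective tissue, reached 111 and 155 CPM there while Col1a1 was at 0 and 0.352 CPM, so these cells are given no cell type. Among mCherry-rich cells 46.6% (young) and 36.6% (adult) held a Csf1r UMI, and macrophage RNA was estimated at 7.41% and 5.74% of their UMIs. Depth differed widely, with median UMIs of 60070 and 47939 in target-positive, 18383 and 19355 in target-negative, 10349 and 10123 in Csf1r cells, and 2163 and 1907 in neutrophils.

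The unfolded protein response is set off when proteins fold poorly in the ER. Its sensors IRE1, ATF6 and PERK raise chaperones and degradation factors through the transcription factors XBP1, ATF6 and ATF4. ATF4 is also the output of the integrated stress response, in which kinases that sense lack of amino acids, ER stress, heme shortage or double-stranded RNA phosphorylate eIF2α and allow ATF4 to be translated. ATF4 raises amino acid transporters, asparagine and serine synthesis and tRNA synthetases, and, with prolonged stress, Ddit3 (CHOP), Trib3 and Chac1. Since ATF4 is controlled mainly at translation, its RNA level is not a readout of its activity. Many tumour cells make serine from a glycolytic intermediate by PHGDH, PSAT1 and PSPH and pass its carbon to folate through SHMT2 and MTHFD2.

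The promoters of these genes hold letters known from both branches. RefSeq promoters (build GRCm38.p6, 250 bases before to 50 after the start) were used for 28 of the 32 members; Hyou1, Manf and Slc7a5 had no entry. Each was searched on both strands for the ER stress response element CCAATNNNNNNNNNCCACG and for the C/EBP-ATF response element TGATGNAA. The first occurred in 0.119% of all 32851 promoters of that length and in 7 of 12 chaperone genes (Hspa5, Calr, Hsp90b1, Canx, Pdia6, Dnajc3, Creld2), in 0 of 6 regulators and in 0 of 10 amino acid and serine genes. The second occurred in 3.97% of all promoters, in 1 of 12 chaperone genes (Herpud1), in 2 of 6 regulators (Atf3, Trib3) and in 3 of 10 amino acid and serine genes (Asns, Chac1, Slc7a11). A match is a description of letters in this window and not a bound site. The 14 windows upstream of a start follow, read 5′ to 3′ on the strand of the gene with the motif in capitals; capitals that begin CGTGG or TT carry the motif on the opposite strand. In GENCODE M21, 12 of them lie outside exons, and those of Hspa5 and Asns overlap an exon of the same gene because another transcript starts farther upstream. The ER stress element windows come first:
Hspa5, chr2:34772020-34772048, + strand: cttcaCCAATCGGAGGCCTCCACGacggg
Calr, chr8:84847070-84847098, - strand: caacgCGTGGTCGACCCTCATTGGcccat
Hsp90b1, chr10:86705633-86705661, - strand: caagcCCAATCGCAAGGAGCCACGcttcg
Hsp90b1, chr10:86705528-86705556, - strand: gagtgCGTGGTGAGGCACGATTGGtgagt
Canx, chr11:50325795-50325823, - strand: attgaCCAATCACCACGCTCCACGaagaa
Pdia6, chr12:17266486-17266514, + strand: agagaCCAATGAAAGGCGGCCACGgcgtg
Dnajc3, chr14:118937822-118937850, + strand: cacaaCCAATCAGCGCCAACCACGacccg
Creld2, chr15:88819515-88819543, + strand: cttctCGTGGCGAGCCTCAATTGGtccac

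The C/EBP-ATF element windows, which show that most matches read TTGCATCA or its reverse complement, are:
Atf3, chr1:191183425-191183454, - strand: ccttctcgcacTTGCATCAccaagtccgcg
Chac1, chr2:119351038-119351067, + strand: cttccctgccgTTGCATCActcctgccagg
Slc7a11, chr3:50443661-50443690, - strand: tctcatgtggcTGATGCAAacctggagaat
Slc7a11, chr3:50443642-50443671, - strand: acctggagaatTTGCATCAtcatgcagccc
Asns, chr6:7693214-7693243, - strand: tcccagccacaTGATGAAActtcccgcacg
Herpud1, chr8:94386306-94386335, + strand: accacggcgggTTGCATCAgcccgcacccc

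Genes with the same element did not share 1 pattern of levels. Calr and Hspa5 both carry the ER stress element, yet Calr was lower in mCherry-rich than in Csf1r cells and Hspa5 was not, and Slc7a11 and Chac1 both carry the C/EBP-ATF element but stood highest in different cell classes, as the values below show. Trib3 carried its match to the second element after the start, so no window of it is printed.

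Each cell class had its own combination of the groups. The summed level of the 14 chaperones was 2123 CPM (95% Poisson interval 2098 to 2148) in young and 2085 CPM (2059 to 2112) in adult target-positive cells. It was 1321 and 1334 CPM in target-negative cells, 2296 and 2831 CPM in Csf1r cells, and 1260 and 1951 CPM in neutrophils. The chaperone sums of these 8 values thus ranged only from 1260 to 2831 CPM. The 5 serine and one-carbon genes summed to 968 and 904 CPM in target-positive cells and to 1045 and 1154 CPM in target-negative cells. In Csf1r cells they summed to 59.9 and 68.5 CPM, and in neutrophils to 36.8 CPM (19.0 to 64.3, 12 UMIs) and 33.4 CPM (18.7 to 55.2, 15 UMIs). The 2 mCherry-rich classes therefore lay above the 2 immune classes in both libraries. The share of all genes with that order was not counted. The 3 transporter genes had the opposite order, at 319 and 311 CPM in target-positive, 172 and 146 CPM in target-negative, 776 and 651 CPM in Csf1r cells and 2315 and 1926 CPM in neutrophils. The 6 regulators were lowest in target-negative cells (285 and 261 CPM) and highest in neutrophils (1935 and 2497 CPM), with target-positive (1055 and 1119 CPM) and Csf1r cells (1051 and 1107 CPM) almost equal.

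**Figure D1:**
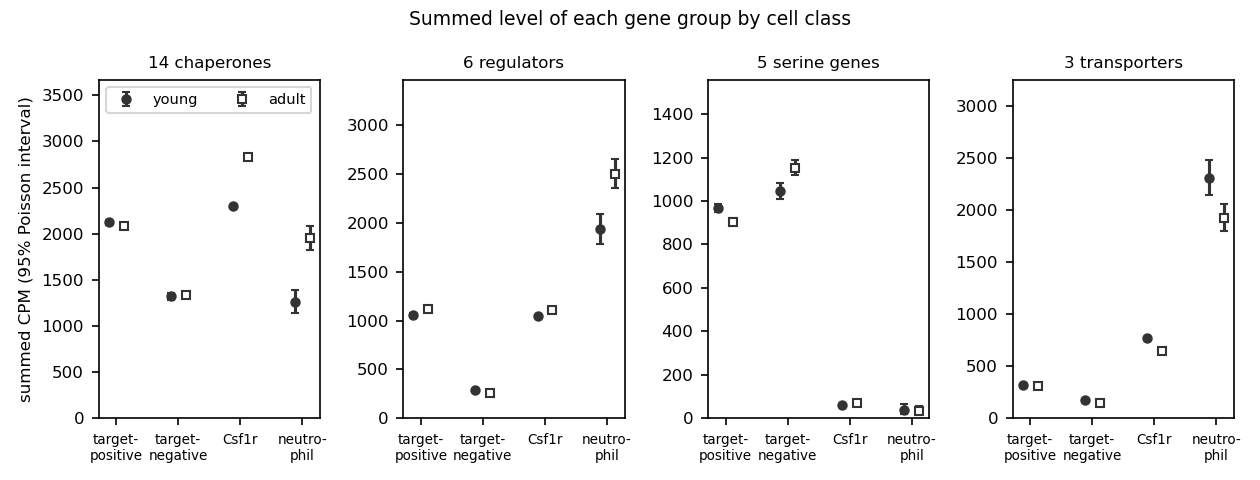
Summed level (CPM, axis from 0) of the 14 chaperones, 6 regulators, 5 serine and one-carbon genes and 3 transporter genes in the 4 cell classes (horizontal axis); filled circles are the young and open squares the adult library, and bars are 95% Poisson intervals for counting error. The serine genes lie near 1000 CPM in both mCherry-rich classes and under 70 CPM in Csf1r cells and neutrophils, while the transporters are highest in neutrophils.

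As a log2 ratio of summed CPM, the serine genes stood at -1.13 (young) and -1.21 (adult) relative to the chaperones in target-positive cells and at -0.34 and -0.21 in target-negative cells. In Csf1r cells the ratio was -5.26 and -5.37, and in neutrophils -5.10 and -5.87. When all 12 amino acid and serine genes were set against the chaperones, the classes came in another order: -0.46 and -0.52 in target-positive, 0.12 and 0.20 in target-negative, -1.40 and -1.91 in Csf1r cells, and 0.94 and 0.07 in neutrophils. The neutrophil value of the whole group rested on Slc7a11, which alone made 1959 of 2419 CPM in the young and 1505 of 2045 CPM in the adult library. In CPM, the serine genes and the cystine transporter gene Slc7a11 thus stood highest in different cell classes. A single score over the 12 genes would join them.

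**Figure D2:**
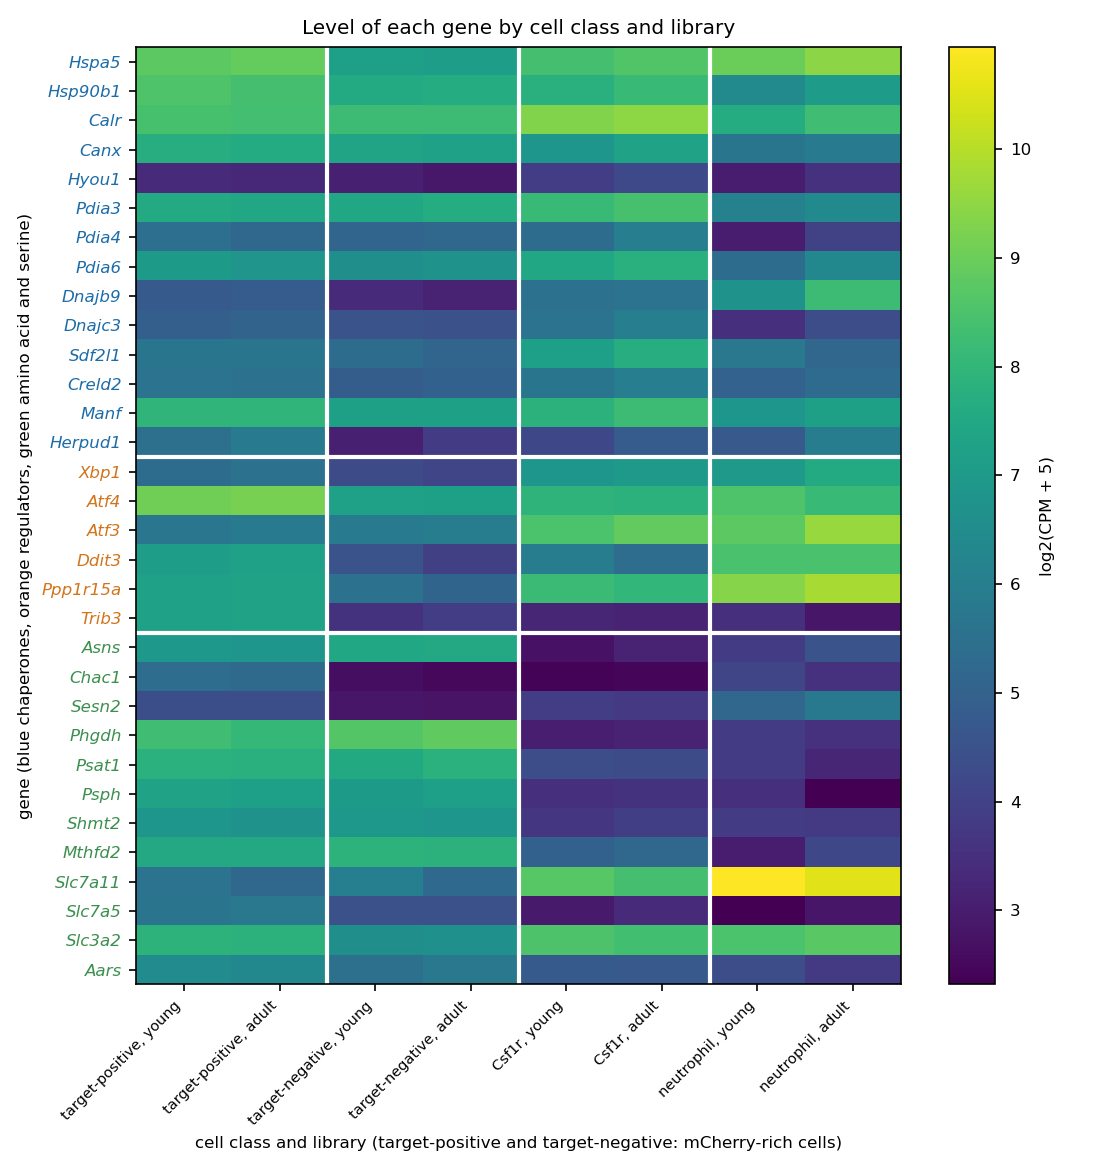
Level of each of the 32 genes, as log2(CPM + 5) on the colour scale, with genes as rows (blue names chaperones, orange regulators, green amino acid and serine genes) and cell class by library as columns. Phgdh, Psat1, Psph, Shmt2 and Mthfd2 are brighter in the 4 mCherry-rich columns than in the other 4, and Slc7a11 is brightest in the 2 neutrophil columns.

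In mCherry-rich cells as a whole, serine and asparagine synthesis genes were higher than in Csf1r cells of the same library, while several chaperones and the stress genes Atf3 and Ppp1r15a were lower. A gene counted as measured at 10 CPM or more in either class, and as called when the ratio was at least 1.5-fold on the log2(CPM + 5) scale with a counting interval that leaves out 1. In the young library 15 of 31 measured members were called higher and 10 lower, against 31.5% of all 7686 measured genes called higher and 33.3% called lower. In the adult library 13 of 32 were called higher and 13 lower, against 31.0% and 32.1% of 7578 genes. In both libraries alike 13 members were called higher and 10 lower, and none was called in opposite directions. The share of members called higher lay above the background in both libraries and the share called lower above it in the adult library only, differences that were not tested. The groups within the members were not alike. Of 12 amino acid and serine genes, 9 were called higher and 2 lower in each library, with a median log2 ratio of 2.66 (young) and 2.44 (adult) where that of all genes was -0.05 in the young library and under 0.01 from 0 in the adult library.

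Serine synthesis showed the widest gap. Phgdh, which catalyses the first step, stood at 336 CPM (young) and 324 CPM (adult) in mCherry-rich cells, against 3.27 and 4.10 CPM in Csf1r cells. The ratio was 103-fold (95% counting interval 89.4 to 119) and 79.0-fold (68.5 to 91.5). Psph, the phosphatase that releases serine, stood at 148 and 144 CPM against 6.36 and 6.98 CPM (23.3-fold and 20.7-fold). Psat1, the aminotransferase of the second step, was at 220 and 224 CPM against 15.7 and 15.1 CPM. The mitochondrial one-carbon enzymes followed, with Shmt2 at 113 and 110 CPM against 7.74 and 10.2 CPM and Mthfd2 at 197 and 198 CPM against 26.8 and 32.1 CPM. For each of the 5 genes both mCherry-rich values lay above both Csf1r values. In this comparison 31.5% (young) and 31.0% (adult) of all genes were called higher, and the share separated in both libraries was not counted. After each cell was thinned to 3000 UMIs, Phgdh was detected in 55.5% (48.6 to 62.1) of young target-positive and 59.6% (51.2 to 67.6) of young target-negative cells, and in 0.850% (0.621 to 1.14) of young Csf1r cells. In the adult library the shares were 47.7%, 66.5% and 1.30%. Without thinning they were 96.0%, 85.2% and 3.19% (young) and 95.8%, 88.2% and 3.69% (adult), and free RNA can give such small shares in droplets.

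Asns, which makes asparagine, stood at 143 and 134 CPM in mCherry-rich and 1.72 and 3.88 CPM in Csf1r cells, a ratio of 82.6-fold (68.0 to 101) and 34.5-fold (29.7 to 40.3). Chac1, which breaks down glutathione, was at 28.2 and 23.9 CPM against 0.296 and 0.373 CPM (18 UMIs in each Csf1r class). Aars, the alanyl-tRNA synthetase, was 3.41-fold and 3.27-fold higher. Sesn2, a leucine sensor that restrains mTORC1, was called in neither library, at 13.4 and 11.6 CPM against 9.68 and 8.50 CPM. The transporters were divided. Slc7a5, the light chain of the large neutral amino acid exchanger, stood at 37.6 and 39.7 CPM against 2.69 and 5.49 CPM. Slc7a11, the light chain of the cystine-glutamate exchanger, was lower in mCherry-rich cells, at 46.5 and 33.7 CPM against 410 and 332 CPM (8.83-fold lower, 8.23 to 9.48, and 9.87-fold lower, 9.08 to 10.7). Slc3a2, the heavy chain that pairs with both, was at 211 and 190 CPM against 364 and 313 CPM. Of these 2 light chains Slc7a11 was by far the more abundant in Csf1r cells, while both lay between 33.7 and 46.5 CPM in mCherry-rich cells. These levels are in CPM of 3′ tags, of which each transcript gives 1, so no scaling by transcript length was made.

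Among the regulators, 3 were called higher and 3 lower in both libraries. Trib3, a pseudokinase induced by ATF4 and CHOP, stood at 117 and 110 CPM in mCherry-rich and 4.44 and 4.08 CPM in Csf1r cells (26.4-fold, 23.2 to 30.1, and 26.9-fold, 23.2 to 31.3). Atf4 was at 457 and 452 CPM against 238 and 229 CPM. Ddit3, the transcription factor CHOP, was at 112 and 111 CPM against 56.9 and 37.1 CPM. Atf3, a stress-induced repressor that is also an early response gene in macrophages, went the other way at 48.1 and 52.6 CPM against 356 and 460 CPM. Xbp1 was at 31.8 and 34.1 CPM against 109 and 121 CPM. Ppp1r15a, which directs the phosphatase that ends the stress response, was at 124 and 115 CPM against 287 and 255 CPM. Immediate early genes moved with Atf3 and Ppp1r15a, summing to 1058 and 1211 CPM in mCherry-rich and 3669 and 3423 CPM in Csf1r cells, and their part in the difference was not tested. The higher calls of Atf4 and Ddit3 changed with the cells taken. Without the 6% of cells with the most UMIs the log2 ratio of Atf4 was 0.06 and 0.18 and that of Trib3 1.89 and 2.42, where over all cells they were 0.93 and 0.97, and 3.69 and 3.66. Over mCherry-rich cells of 10000 to 40000 UMIs Atf4 was at 0.19 and 0.62, Trib3 at 2.33 and 2.90, and Ddit3 at 0.11 and 1.33. Both settings also keep fewer target-positive cells, described below, so depth and the mix of cells cannot be told apart there.

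The chaperones were mostly lower in mCherry-rich cells or alike. In the young library 3 of 13 measured were called higher and 5 lower, against 31.5% and 33.3% of all measured genes. The young share called lower was thus near the background. In the adult library 1 of 14 was called higher and 8 lower, against 31.0% and 32.1% of all measured genes. The median log2 ratio of the chaperones was -0.22 and -0.79, where that of all genes was -0.05 and -0.002. Calr, the calcium-binding lectin chaperone, stood at 331 and 318 CPM in mCherry-rich cells against 632 and 704 CPM in Csf1r cells (1.91-fold lower, 1.86 to 1.96, and 2.21-fold lower, 2.15 to 2.28). Sdf2l1, a partner of the ER Hsp70, was at 43.4 and 44.3 CPM against 139 and 202 CPM. Dnajb9, Dnajc3 and Pdia3 were the others called lower in both libraries. Hspa5, the ER Hsp70 chaperone BiP, was at 364 and 386 CPM against 330 and 385 CPM, a ratio whose interval was 1.07 to 1.14 in the young and 0.977 to 1.03 in the adult library. Herpud1, a membrane factor of ER-associated degradation, was the chaperone called higher in both libraries, at 31.8 and 40.1 CPM against 13.4 and 23.6 CPM. Over mCherry-rich cells of 10000 to 40000 UMIs its log2 ratio was -0.04 and 0.24, and it was no longer called in either library.

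The other genes of these pathways also differed by list. The background was 31.5% (young) and 31.0% (adult) of all measured genes called higher, and 33.3% and 32.1% called lower. Of 19 further tRNA synthetases all were measured, and 15 were called higher and 0 lower in mCherry-rich cells in each library, among them Tars (119 and 111 CPM against 12.3 and 14.9 CPM). Of 24 further measured genes of the ATF4 type, 18 were called higher and 4 lower in each library. Atf5, a related transcription factor, stood at 64.2 and 93.6 CPM against 6.59 and 8.93 CPM, and Gpt2, which makes alanine, at 38.7 and 38.3 CPM against 3.96 and 2.92 CPM. Cebpb, a partner of ATF4 that is high in myeloid cells, was lower at 39.6 and 35.3 CPM against 179.5 and 195 CPM. Of 19 further measured ER genes 2 were called higher and 6 lower in each library. The share called lower was near the background, and the share called higher lay below it. The largest differences were those of Pdia5 (higher) and Edem1 (39.0 and 36.6 CPM against 129 and 132 CPM). The medians of log2 ratios were 1.5 and 1.4 for the synthetases, 1.62 and 1.35 for the ATF4-type genes and -0.01 and -0.27 for the ER genes.

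**Figure D3:**
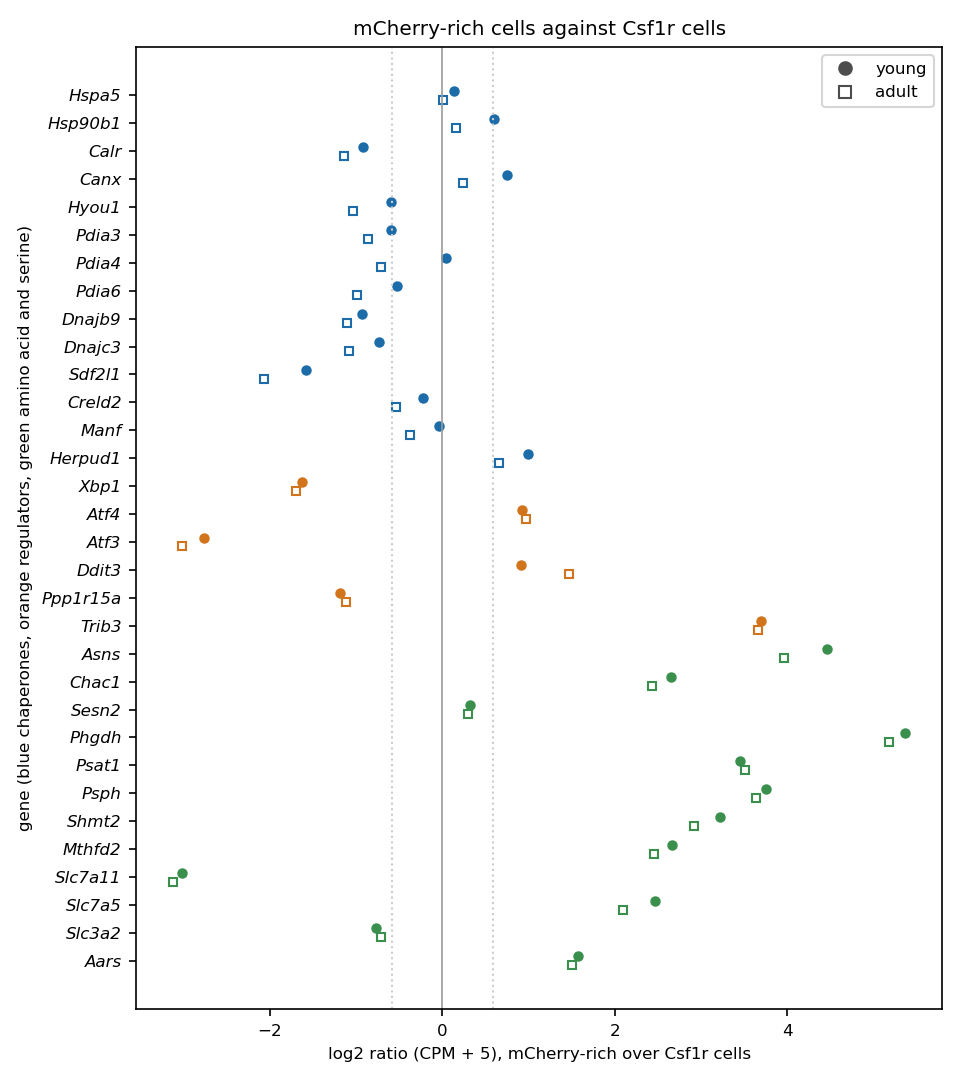
Log2 ratio of mCherry-rich over Csf1r cells (horizontal axis, CPM + 5) for each of the 32 genes (vertical axis); filled circles are the young and open squares the adult library, and dotted lines mark 1.5-fold. The 5 serine genes, Asns and Trib3 lie farthest to the right in both libraries, and Slc7a11 and Atf3 farthest to the left.

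Within mCherry-rich cells, the target-positive cells carried the stress regulators and BiP at higher levels than the target-negative cells, while serine synthesis did not follow. This comparison needs care, because target-negative cells had fewer genes (medians of 2168 and 2247, against 6172 and 5595), a larger ribosomal protein share (46.6% and 47.1% of UMIs, against 37.8% and 38.2%), less Malat1, a nuclear RNA (2902 and 1494 CPM, against 4979 and 6539 CPM), and less cycling RNA (135 and 184 CPM, against 424 and 407 CPM). Their estimated macrophage RNA was larger, at 11.9% and 8.41% against 6.15% and 4.34%. The target rule used raw UMIs, not scaled by depth. Values over mCherry-rich cells of 10000 to 40000 UMIs and after subtraction of macrophage RNA are given below. Depth inside that window was not compared between the classes, and the part of the other differences was not tested. The median log2 ratio of all genes was itself 0.67 in the young and 0.71 in the adult library, and ratios below are also given relative to that median. In the young library 16 of 31 measured members were called higher and 0 lower, and in the adult library 15 of 31 higher and 2 lower, where 54.4% and 55.8% of all genes were called higher and 3.58% and 2.56% lower. Relative to the median of all genes, 10 members were called higher and 6 lower in the young library (background 20.9% and 20.8%), and 11 higher and 11 lower in the adult library (background 22.8% and 23.1%). On the second scale 9 genes were higher in both libraries (Atf4, Chac1, Ddit3, Dnajb9, Herpud1, Hspa5, Ppp1r15a, Sesn2, Trib3) and 6 lower (Asns, Atf3, Mthfd2, Phgdh, Shmt2, Slc7a11).

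Trib3 stood at 149 and 152 CPM in target-positive and 7.10 and 9.66 CPM in target-negative cells, a ratio of 21-fold (13.9 to 33.7) and 15.7-fold (11.5 to 22.1). Ddit3 was at 139 and 149 CPM against 18.1 and 10.6 CPM (7.69-fold, 5.89 to 10.2, and 14.1-fold, 10.4 to 19.4). Atf4 was at 534 and 571 CPM against 149 and 143 CPM (3.59-fold and 4.00-fold), and Ppp1r15a at 149 and 152 CPM against 41.3 and 29.4 CPM. Both target-positive values of these 4 regulators lay above both target-negative values. Of all genes 54.4% (young) and 55.8% (adult) were called higher in this comparison, and the share separated in both libraries was not counted. Atf3 was the exception among the regulators, at 47.2 and 53.7 CPM against 54.5 and 56.2 CPM. Chac1 stood at 37.0 and 34.1 CPM against 1.29 CPM (4 UMIs) and 0.724 CPM (3 UMIs), a ratio of 28.7 (11.1 to 106) and 47.1 (16.0 to 229). Sesn2 was at 16.1 and 15.9 CPM against 2.26 and 1.93 CPM. Thinned to 3000 UMIs, Trib3 was found in 31.8% (25.7 to 38.4) and 26.6% (21.1 to 32.7) of target-positive cells and in 2.05% (0.426 to 5.89) and 3.24% (1.20 to 6.93) of target-negative cells; the shares of Csf1r cells, 1.28% and 1.16%, give a level to read these against. Without thinning they were 88.8% and 83.2% against 8.39% and 11.3%, and 4.57% and 3.97% in Csf1r cells.

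The chaperones were split. Hspa5 stood at 431 and 473 CPM in target-positive and 141 and 136 CPM in target-negative cells (3.06-fold, 2.77 to 3.38, and 3.48-fold, 3.19 to 3.80). Herpud1 was at 40.4 and 53.5 CPM against 3.55 CPM (11 UMIs) and 9.41 CPM, and Dnajb9, a J-protein that holds the sensor IRE1 in check, at 22.2 and 23.2 CPM against 5.48 and 4.10 CPM. These 3 were the chaperones higher relative to all genes in both libraries. Calr was at 343 and 324 CPM against 299 and 292 CPM, and Pdia3, a disulfide isomerase, at 187 and 176 CPM against 176 and 197 CPM. The median chaperone had a log2 ratio of 0.42 and 0.58, which is -0.25 and -0.12 relative to all genes. Manf (243 and 247 CPM against 145 and 145 CPM) and Hsp90b1 (371 and 336 CPM against 187 and 196 CPM) were called higher in both libraries on the first scale but lay within 1.5-fold of the median of all genes on the second.

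Serine and asparagine genes lay at the other end. Phgdh stood at 306 and 262 CPM in target-positive and 388 and 454 CPM in target-negative cells, a ratio of 1.27-fold lower (1.19 to 1.35) in the young and 1.73-fold lower (1.63 to 1.83) in the adult library. Asns was at 115 and 109 CPM against 169 and 177 CPM (1.47-fold and 1.62-fold lower). Psph was at 150 and 141 CPM against 125 and 140 CPM, and Psat1 at 224 and 217 CPM against 183 and 221 CPM. Of the 5 serine genes, 0 were called higher on either scale, and relative to all genes 3 were called lower in the young and 5 in the adult library. Thus Asns and Chac1, which both carry the C/EBP-ATF letters, moved apart: Asns was lower and Chac1 higher in target-positive cells. The exchanger genes Slc3a2 (231 and 229 CPM against 93.9 and 95.3 CPM) and Slc7a5 (44.7 and 49.9 CPM against 17.1 and 16.9 CPM) were higher on the first scale, each 2.40-fold to 2.95-fold. Relative to all genes Slc3a2 was called in the young library only (0.59 and 0.51 on the log2 scale) and Slc7a5 in the adult library only (0.50 and 0.62). Slc7a11 was at 43.1 and 32.8 CPM against 61.0 and 33.8 CPM.

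**Figure D4:**
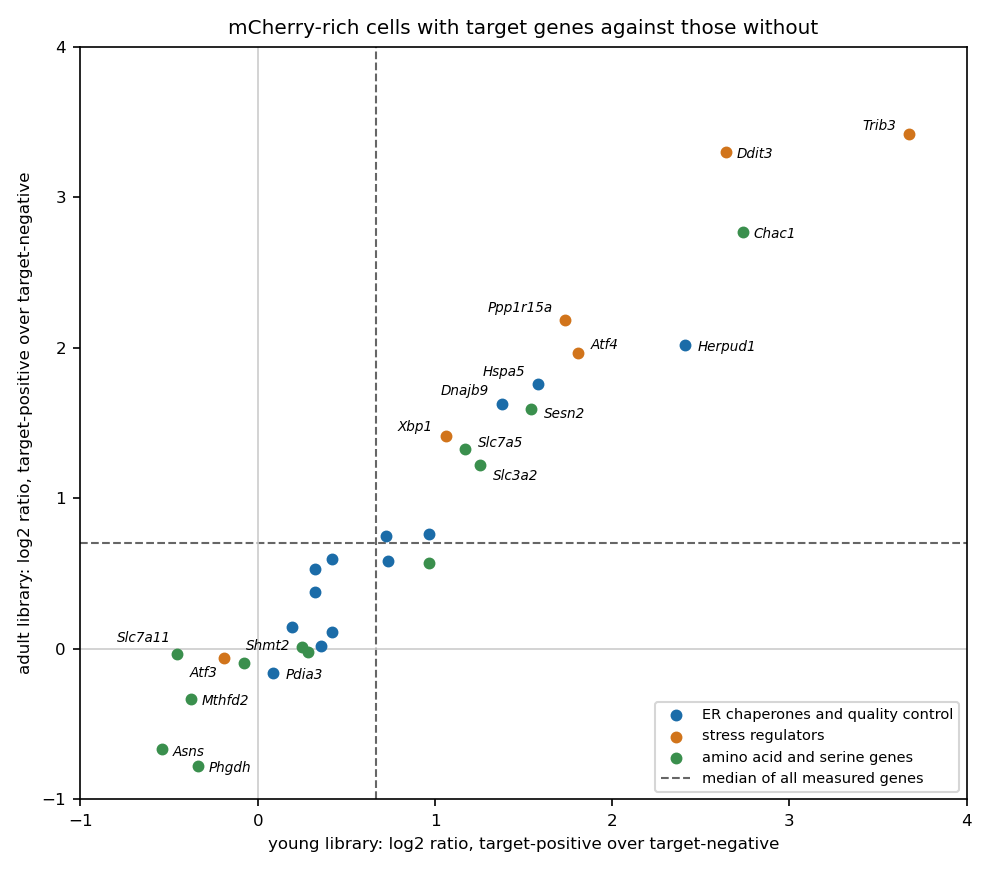
Log2 ratio (CPM + 5) of target-positive over target-negative mCherry-rich cells in the young (horizontal axis) and adult library (vertical axis), 1 point per gene measured in both, coloured by group; dashed lines mark the median of all measured genes, 0.67 and 0.71. Trib3, Ddit3 and Chac1 lie at the upper right, and Phgdh and Asns at the lower left, below 0 in both libraries.

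Trib3, Ddit3, Chac1 and Hspa5 stayed higher in target-positive cells when depth or macrophage RNA was treated in other ways, with changes in size. With each cell thinned to 3000 UMIs the log2 ratio of Trib3 was 2.33 (young) and 3.66 (adult), against 3.67 and 3.42 without thinning. That of Ddit3 was 2.14 and 3.10, against 2.64 and 3.30, and that of Chac1 was 1.93 and 2.40, against 2.74 and 2.77. Over mCherry-rich cells of 10000 to 40000 UMIs (46 target-positive and 112 target-negative young cells, 73 and 131 adult cells) the log2 ratio of Trib3 was 3.61 and 3.44, that of Ddit3 3.06 and 4.07, and that of Hspa5 1.71 and 2.63. In the adult library Phgdh stayed lower at -0.76, while Asns was at -0.19. After subtraction of macrophage RNA the ratios of Trib3 were 3.72 and 3.43 and those of Hspa5 1.88 and 2.03. The further pathway genes were mixed relative to all genes. On that scale 20.9% (young) and 22.8% (adult) of all genes were called higher, and 20.8% and 23.1% lower. Of the further ATF4-type genes 8 of 25 (young) and 8 of 24 (adult) were higher, among them Slc1a5, a glutamine transporter (60.4 against 4.84 CPM in the young library), Slc38a2, another amino acid transporter (125 against 13.3 CPM in the adult library), and Cebpg (55.3 and 57.2 CPM against 8.39 and 5.31 CPM), while 7 were lower in each. Of 19 tRNA synthetases, 0 were higher and 8 and 12 lower, led by Farsb (47.1 and 47.3 CPM against 72.2 and 71.0 CPM). Of 18 further ER genes, 2 and 4 were higher and 1 and 3 lower, among the higher ones Sel1l, of the ER degradation complex, at 24.8 and 23.9 CPM against 7.42 and 5.07 CPM.

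Neutrophils had a selective pattern, with high levels of a few stress genes and low levels of most folding enzymes. With few UMIs in this class (326137 young, 448499 adult), the median log2 ratio of all genes over Csf1r cells was -0.52 and -0.66. In the young library 8 of 25 measured members were called higher and 10 lower (background 13.7% and 28.8%), and in the adult library 10 of 27 higher and 11 lower (background 15.5% and 40.0%). Relative to the median of all genes, 10 and 12 were higher and 9 and 6 lower (background 21.1% and 24.2% higher, 13.2% and 17.4% lower). Slc7a11 stood at 1959 and 1505 CPM in neutrophils against 410 and 332 CPM in Csf1r cells (4.78-fold, 4.41 to 5.17, and 4.53-fold, 4.19 to 4.89), the highest value of any member in any class. Slc3a2, its heavy chain, was at 356 and 419 CPM against 364 and 313 CPM, and Slc7a5 had 0 and 1 UMIs. Ddit3 was at 346 and 348 CPM against 56.9 and 37.1 CPM (6.09-fold, 5.0 to 7.34, and 9.37-fold, 7.91 to 11.0), above the target-positive cells in both libraries, while Trib3 had 2 and 1 UMIs. Chac1 was called higher in the young library on 4 UMIs, at 12.3 CPM against 0.296 CPM in Csf1r cells (41.5-fold, 10.2 to 126). Only 1.64% of the 122 young neutrophils held a Chac1 UMI, and the interval does not cover differences between cells. In the adult library Chac1 had 3 UMIs, at 6.69 against 0.373 CPM (17.9-fold, 3.38 to 61.4), too few to be measured there.

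Ppp1r15a was at 653 and 901 CPM in neutrophils against 287 and 255 CPM in Csf1r cells, Dnajb9 at 101 and 297 CPM against 41.2 and 43.4 CPM, and Hspa5 at 512 and 698 CPM against 330 and 385 CPM. Hspa5 thus did not go with the other folding genes. Calr was at 196 and 312 CPM against 632 and 704 CPM, Pdia3 at 64.4 and 82.5 CPM against 282 and 339 CPM, and Sdf2l1 at 49.1 and 31.2 CPM against 139 and 202 CPM. Pdia4, a disulfide isomerase, had 1 and 5 UMIs (3.07 and 11.1 CPM against 36.4 and 58.7 CPM), and its ratio was 11.9-fold lower (2.13 to 469) in the young and 5.27-fold lower (2.25 to 16.2) in the adult library. Relative to all genes, 8 and 6 of the measured chaperones were lower and 2 and 3 higher. Manf in both libraries, and Calr, Hsp90b1 and Creld2 in the adult library, were called lower on the first scale only. Phgdh had 3 UMIs in each library and Psph 2 and 0, and the 0 allows up to 3 UMIs. Immediate early genes summed to 6571 and 8640 CPM in this class, against 3669 and 3423 CPM in Csf1r cells, and their part in the levels of Ddit3, Ppp1r15a and Atf3 was not tested.

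Between the young and adult libraries the module differed less than between cell classes. In target-positive cells 0 of 31 measured members were called in either direction, with log2 ratios (young over adult) from -0.36 for Herpud1 to 0.35 for Slc7a11, where 2.27% of all genes were called higher and 0.887% lower. Trib3 (149 and 152 CPM), Ppp1r15a (149 and 152 CPM) and Mthfd2 (178 and 180 CPM) were within 1.02-fold of each other. When the 6% of cells with the most UMIs were left out, 11 members were called (6 higher, 5 lower), over only 31 young and 39 adult target-positive cells. In target-negative cells 1 of 26 was called, Slc7a11 at 61.0 CPM (young) and 33.8 CPM (adult), with a ratio of 1.80 (1.44 to 2.26), where 7.85% of all genes were called higher and 1.56% lower. Its log2 ratio of 0.77 was 1.03 over cells of 10000 to 40000 UMIs, 0.72 after subtraction of macrophage RNA, 0.55 over the cells with no Csf1r UMI, 0.38 without the deepest cells and -0.09 after each cell was thinned to 3000 UMIs, so it was under the call limit in the last 3.

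In Csf1r cells all 14 chaperones were lower in the young than in the adult library, with a median log2 ratio of -0.35 and a range of -0.64 to -0.07, beside a median of 0.04 over all genes. Of these differences 12 were under the call limit, and the share of all genes below 0 was not counted. Of 25 measured members 2 were called: Herpud1 at 13.4 against 23.6 CPM (1.76-fold lower, 1.61 to 1.93) and Pdia4 at 36.4 against 58.7 CPM (1.61-fold lower, 1.52 to 1.71), where 2.22% of all genes were called higher and 1.51% lower. Calr stood at 632 against 704 CPM and Hspa5 at 330 against 385 CPM. The transporters Slc7a11 (410 against 332 CPM) and Slc3a2 (364 against 313 CPM) and the regulator Ddit3 (56.9 against 37.1 CPM, log2 ratio 0.56) had the other direction without being called. Of 18 further ER genes measured in these cells 0 were called, with a median of -0.13. With each cell thinned to 3000 UMIs, 1 member was called higher and 1 lower.

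In neutrophils 6 of 25 measured members were called lower in the young library and 0 higher, where 3.16% of all genes were called lower and 6.72% higher. With each cell weighing the same, 4 members were called lower and 0 higher. With each cell thinned to 3000 UMIs, which left 26 young and 31 adult cells, 3 were called lower and 1 higher. The median of all genes was 0.13 in this comparison, and relative to it 8 members were lower and 0 higher (background 4.47% and 4.49%). Dnajb9 had the widest difference, at 101 CPM (33 UMIs) in the young and 297 CPM (133 UMIs) in the adult class, 2.93-fold lower (1.99 to 4.43). Herpud1 was at 21.5 CPM (7 UMIs) against 55.7 CPM (25 UMIs), and Pdia6, a disulfide isomerase, at 36.8 against 75.8 CPM. Atf3 was at 432 against 785 CPM, Calr at 196 against 312 CPM, and Xbp1 at 123 against 187 CPM. The amino acid and serine genes gave no call in either direction, with Slc7a11 at 1959 against 1505 CPM. Young neutrophils had 122 cells and adult neutrophils 195, and their medians were 735 and 639 genes per cell.

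**Figure D5:**
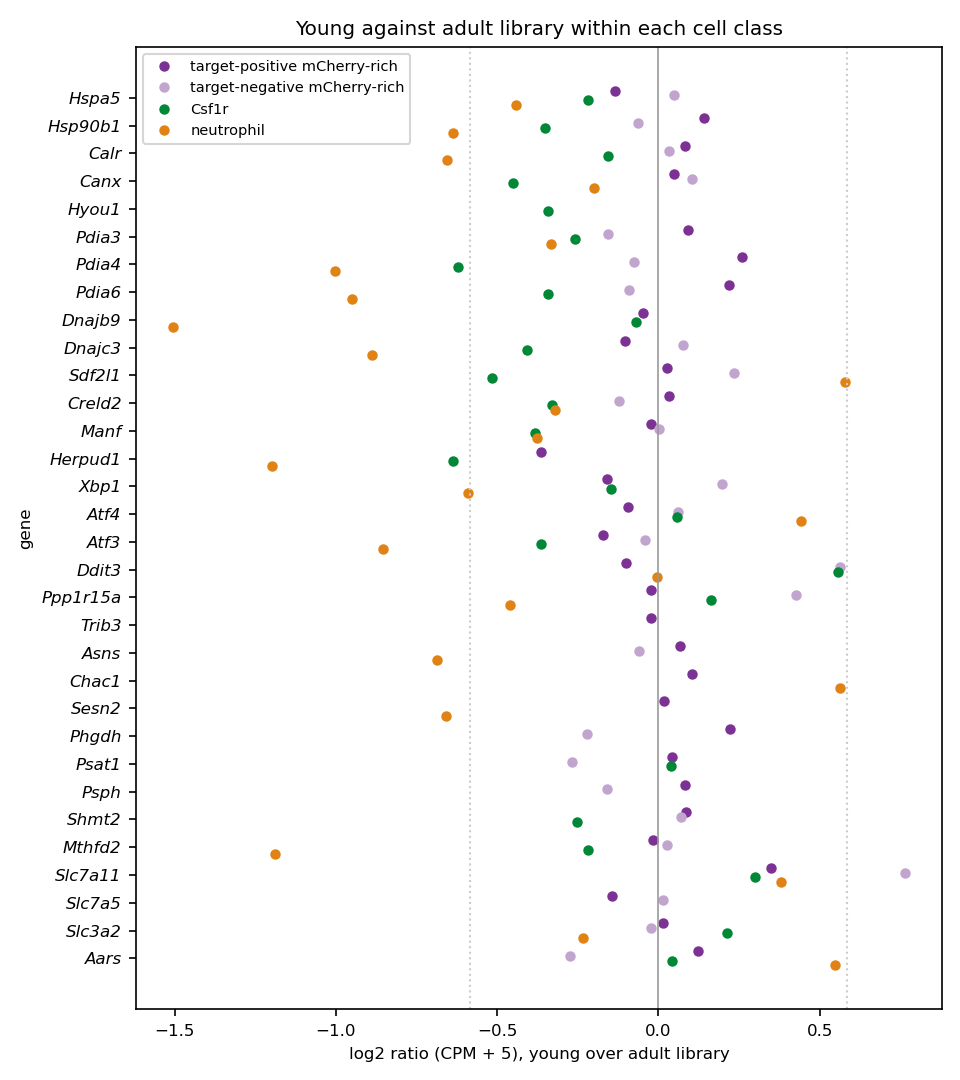
Log2 ratio of the young over the adult library (horizontal axis, CPM + 5) for each measured gene (vertical axis) in the 4 cell classes (colours), with dotted lines at 1.5-fold; each library is a single pool. Target-positive cells stay inside the dotted lines for every gene, and the points of Csf1r cells lie left of 0 for all 14 chaperones. Of these 14 genes 2 were called, and the median of all genes in Csf1r cells was 0.04.

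Over 220 young and 237 adult target-positive cells thinned to 3000 UMIs, Spearman's rho between the summed chaperones and the summed serine genes was 0.11 and 0.16, and between the serine genes and the sum of Ddit3, Trib3, Chac1 and Sesn2 it was 0.04 and -0.03. Between the chaperones and that same sum it was 0.02 and 0.09. In counts this sparse, rank correlations are drawn towards 0, so these values are no finding.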

How the data were processed

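Each library was deposited as a sparse matrix of UMI counts, which the authors had not normalised. Cell Ranger 3.0.2 and the build mm10 are named per the submitters' processing notes; annotation, strand setting and barcode filter were not given in the sources used here. Barcodes under 200 genes or above 10% mitochondrial UMIs were left out (468 young, 505 adult). No doublet caller was run, so doublets are probably still present; leaving out mixed cells (a Csf1r UMI in an mCherry-rich cell, or over 2 mCherry UMIs in a Csf1r cell) and the deepest 6% of cells were the alternatives. UMIs were summed per class and library and given as CPM. Intervals (95%) are exact Poisson for levels, conditional exact binomial (Clopper-Pearson) for ratios and exact binomial for shares. Log2 ratios used a pseudocount of 5 CPM. Macrophage RNA was scaled from 7 macrophage genes. Members and lists were chosen with earlier results of these data known. All 32 members could be named; given in full were the 2 members of highest mean level in each group and, in each comparison, the called members with the 3 largest log2 ratios in each direction, and of other pathway genes at most 3 called per direction. The promoter of 1 member is not reported here. The comparison was tested on simulated data. Python 3.11.15, numpy 2.4.6 and scipy 1.17.1 were used.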

Additional observations from a re-analysis of the deposited data

How the results depend on the processing

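Of 118 recomputed counts of called members, 107 lay within 1.5 times of the reported count. Each such count adds higher and lower calls, so a change of direction does not show in it. Relative to all genes, for example, the 16 higher and 0 lower calls of young target-positive cells became 10 and 6. Those of the adult library, 15 and 2, became 11 and 11. Of 1568 recomputed values of single called genes, 868 lay inside the counting interval of the reported ratio, which carries no pseudocount. A further 693 lay outside it with the same sign, and 7 changed sign. No paired analysis was possible because each age has 1 library and the labels give no replicate numbers. With a minimum of 50 CPM, the members called between target-positive and target-negative cells numbered 9 (young) and 11 (adult), since fewer genes were measured, and those called between ages in Csf1r cells numbered 1. In target-negative cells the count between ages was 2 with a mitochondrial limit of 20%, with no minimum level, with a pseudocount of 1 CPM, without the deepest cells and with each cell weighing the same. In target-positive cells it was 2 without mixed cells, 11 without the deepest cells and 4 over mCherry-rich cells of 10000 to 40000 UMIs. These settings kept fewer cells, and the cause of the higher counts was not tested. Log2 ratios that changed sign were, without the deepest cells, Manf between target-positive and target-negative young cells (-0.10), and Herpud1 (-0.52 young, -0.28 adult) and Ddit3 (-0.34 young) between mCherry-rich and Csf1r cells. The others were Herpud1 in that comparison over 10000 to 40000 UMIs (-0.041, young), Slc7a11 between ages in target-negative cells thinned to 3000 UMIs (-0.086), and Dnajc3 between adult target-positive and target-negative cells relative to all genes (-0.11). The window of 10000 to 40000 UMIs and the removal of shared barcodes were chosen after seeing the data. Neutrophil values are limited by depth: 26 young and 31 adult cells reached 3000 UMIs.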
